A study of Mus musculus with 146 samples.

Results

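The genes described here encode the cohesin ring of meiotic chromosomes and the HORMA domain proteins of the meiotic axis, in germ cells of the newborn mouse ovary. The 10 genes were taken by symbol from the 52605 gene symbols quantified in each cell. Of these, 7 are meiotic genes (*Hormad1*, *Hormad2*, *Trip13*, *Stag3*, *Rec8*, *Rad21l* and *Smc1b*) and 3 encode cohesin subunits that dividing somatic cells also use (*Rad21*, *Smc1a* and *Smc3*). The study profiled 146 single cells by Smart-seq2, which amplifies polyadenylated RNA from 1 cell along its whole length. Germ cells were picked by their size under a microscope from 5 dissociated ovaries of female C57/BL6J pups of 1 litter at day 0.5 after birth, when follicles are being formed. No treatment, transgene or second group was named, and no cell was tied to an animal. All cells are therefore 1 sample, and neither a p-value nor a standard error was made from them.

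Cohesin is a ring of a pair of SMC proteins closed by a kleisin and bound by a STAG subunit. It holds sister chromatids together, and in meiosis it also forms the base of the chromosome axis. Meiotic cells replace SMC1A by SMC1B, RAD21 by REC8 or RAD21L and the somatic STAG proteins by STAG3, while SMC3 is shared. HORMAD1 and HORMAD2 coat the axes of chromosomes that have not yet synapsed, and the ATPase TRIP13 strips them off. Mouse oocytes finish synapsis and recombination before birth and then arrest in late prophase, held together by cohesin laid down in the fetus.

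A single library had no *Ddx4* (0 in TPM, the share of transcripts scaled to 1000000 per cell), the germ cell helicase used here to accept a cell, and was left out. Among the others, 7 pairs were nearly the same: their Pearson r over coding genes was 0.989 to 0.996, against at most 0.843 for any other of 10440 pairs compared in all. Their reads differed by a chi-square per degree of freedom of 1.91 to 5.18, and 10 other pairs gave at least 333.9. Each such pair was averaged and counted once as a cell. The cells so kept, of which the 5 bins below hold 28, 27, 28, 27 and 28, had 4103144 to 17440741 estimated reads on genes, with a median of 9509197. *Ddx4*, on which the cells were chosen, ran from 7.49 to 542 TPM, and the other germ cell markers (*Dazl*, *Mael*, *Tdrd1* and *Piwil2*) had means of 75.9 to 547 TPM. Of 6 pregranulosa markers, 5 had a median of 0 TPM, and their summed level reached 10 TPM in 6 cells (highest 81.6 TPM). The authors had discarded samples in which quantitative PCR found *Foxl2*, 1 of these markers, so a low level was partly selected for. Of 5 stroma markers, 3 had a median of 0 TPM, but their summed level reached 10 TPM in 38 cells. Its mean went from 23.2 TPM in the first bin of the order described below to 5.55 TPM in the last. The summed blood and endothelial markers had a median of 49.3 TPM but reached 324973 TPM in the highest cell. Leaving out the cells at 10000 TPM or more of these markers moved the log2 ratios of the 10 genes given below by less than 0.20, and without the 38 cells with stroma markers the meiotic genes were at -2.67 to -0.89 and *Rad21* at 2.13.

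Cells were ordered along the first principal component of 18 genes, 17 of them feature genes that the study names, and *Taf4b*, from cells high in *Taf7l* and *Taf4b* to cells high in *Zp3*, *Zp2*, *H1foo* and *Gdf9*, genes of the zona pellucida and the growing oocyte. None of the 10 genes entered this order. It was divided into 5 bins of 27 or 28 cells, and the last bin was compared with the first, with 28 cells in each. A log2 ratio of mean TPM + 1 was called at 1.5-fold, with no test. Toward the end of the order the spike-in RNA fell from a median of 11444 to 6555 TPM, the summed germ cell markers from 1925 to 721 TPM, and the mitochondrial share of reads went from 5.21 to 7.09%. The part these played in the results was not tested, but values scaled to the spike-in RNA are given below.

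By median level, 3 meiotic genes came first (per transcript length, in TPM over all cells kept). *Hormad1* stood highest, with a median of 388 TPM and an interquartile range of 228 to 669 TPM. *Smc1b* followed with 295 TPM (189 to 430), and *Stag3* with 172 TPM (105.4 to 275). The quartiles of these neighbours overlapped, but those of *Stag3* lay wholly above those of the next gene, *Smc1a* (median 38.2 TPM, quartiles 14.5 to 70.4). *Trip13* (37.0 TPM), *Hormad2* (28.2 TPM), *Smc3* (27.4 TPM), *Rad21* (9.97 TPM) and *Rad21l* (7.20 TPM) came next, each with quartiles that overlapped those of its neighbour. *Rec8* was last with a median of 0 TPM.

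Detection split the genes in another way. With at least 0.1 TPM taken as detected, *Hormad1* and *Smc1b* were found in every cell kept (100%, exact Clopper-Pearson 95% interval 97.4 to 100%) and *Stag3* in all but 2. *Rad21l* was found in 86 cells (62.3%, 53.7 to 70.4%) and *Hormad2* in 97 cells (70.3%, 61.9 to 77.8%). *Trip13* was detected in 87.7% of cells and *Rad21* in 80.4%, against 92.8% for *Smc1a* and 97.1% for *Smc3*. The kleisin genes and *Hormad2* were thus the ones most often at 0. These intervals cover counting error over cells only, since amplified reads are not independent molecules.

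The near-identical pairs of libraries show how far such zeros repeat. In 2 of the 7 pairs the first library had no *Hormad2* read, and its partner had none in either case. The same held for the single pair without *Rad21l* and the single pair without *Trip13*. For *Smc3*, 1 library had no read and its partner was also under 0.1 TPM, and detection agreed in 6 of 7 pairs. The median absolute difference of log2(TPM + 1) within a pair was 0.04 for *Rad21l*, 0.07 for *Hormad2* and 0.06 for *Rad21*. Between different cells it was 2.88, 2.79 and 2.23. The pairs disagreed on detection once for *Rad21l*, at most 0.124 TPM, and in 2 of 7 pairs for *Rad21*. The step at which the paired libraries part is not given in the sources used here, so their spread may not cover the whole protocol.

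**Figure D1:**
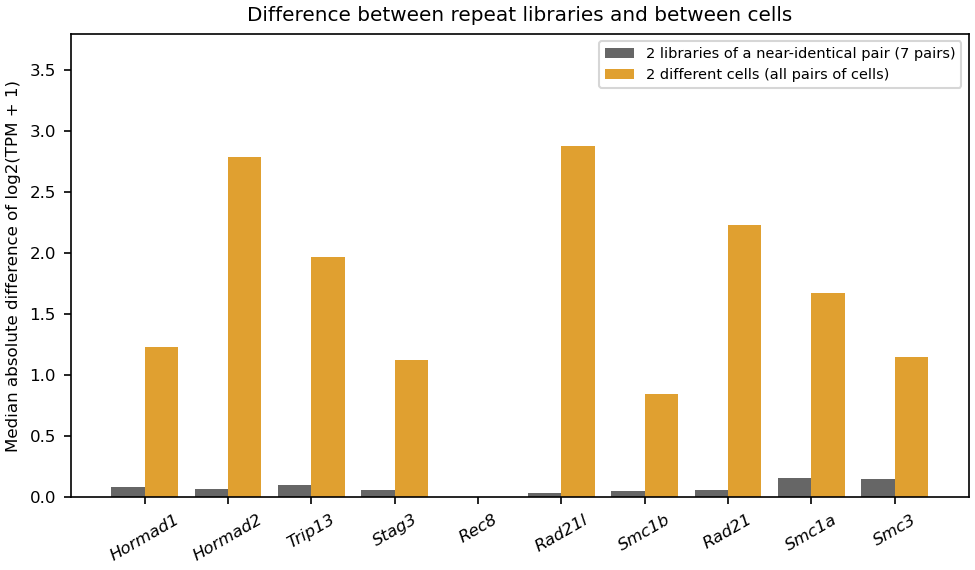
Median absolute difference of log2(TPM + 1) for each gene, between the libraries of a near-identical pair (grey, 7 pairs) and between different cells (orange, all pairs of cells). For every gene but *Rec8*, which was near 0 throughout, the grey bar is far below the orange one, as for *Smc1b* at 0.05 against 0.85.

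The upstream windows of 3 meiotic genes are printed because *Hormad1* and *Smc1b* moved together across cells while *Rad21l* differed from both in detection. RefSeq promoters on GRCm38.p6 were at hand for all 7 meiotic genes, *Smc1a*, *Smc3* and *Stag1*. Each line gives the 120 bases before the gene's RefSeq start, on the gene's strand, with capitals for the letters TCCCGC (the core recognised by E2F6, a repressor that silences meiotic genes in somatic cells) or GCGGGA on the other strand, and for CACGTG (an E-box). The windows lie at chr3:95559557-95559676 on the plus strand, chr15:85131958-85132077 on the minus strand and chr2:151668534-151668653 on the minus strand.
Hormad1: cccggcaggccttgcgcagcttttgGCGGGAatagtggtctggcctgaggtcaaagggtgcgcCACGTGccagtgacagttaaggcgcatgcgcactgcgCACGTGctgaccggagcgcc
Smc1b: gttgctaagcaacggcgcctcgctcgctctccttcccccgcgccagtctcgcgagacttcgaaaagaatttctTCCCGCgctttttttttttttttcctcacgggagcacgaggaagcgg
Rad21l: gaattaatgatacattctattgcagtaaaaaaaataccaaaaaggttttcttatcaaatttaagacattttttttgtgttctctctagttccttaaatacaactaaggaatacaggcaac

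The E2F6 letters began 95 bases before the start of *Hormad1* and 47 bases before that of *Smc1b*, and *Rec8* had them 38 bases before its start. Within 250 bases, 3 of the 7 meiotic genes held them, against 16.9% of 27025 genes, and so did *Smc3* and *Stag1* (15 bases before its start), which are not meiotic. The E-box letters stood in *Hormad1*, 57 and 20 bases before the start, and in *Stag3*, 170 bases before it, against 6.05% of all genes. The *Rad21l* window held neither, and over the 250 bases before the start its CpG dinucleotides were at 24.4% of the number that base composition gives, against 67.1% for *Hormad1* and 121.5% for *Smc1b*. A match describes the letters only.

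*Hormad1* (chr3:95559677-95587671, plus strand), the axis protein that marks unsynapsed chromosomes, had the steepest fall of the genes found in every cell. Its mean was 1182 TPM in bin 1 (lowest 245, median 872, highest 3255) and 182 TPM in bin 5 (lowest 2.53, median 155, highest 490), a log2 ratio of -2.70 (-2.05 with 3 bins). None of the 28 cells of bin 5 reached the median of bin 1, and 20 of them lay below its lowest cell, although the ranges overlapped. The means of bins 2, 3 and 4 were 527, 551 and 330 TPM, so that the decline was not even: it paused between bins 2 and 3. A single cell of bin 3 at 3503 TPM was the highest of all and raised the mean of that bin. The medians of bins 2 and 3 were 461 and 451 TPM. Of 11756 coding genes with a mean of at least 1 TPM, 308 had a lower ratio.

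*Smc1b* (chr15:85064689-85131964, minus strand), which makes the meiotic SMC1, was lower in each successive bin. Its means were 521, 412, 354, 278 and 172 TPM. The cells of bin 1 lay between 224 and 1078 TPM (median 464) and those of bin 5 between 26.4 and 288 TPM (median 172), a log2 ratio of -1.59. Again no cell of bin 5 reached the median of bin 1, and 21 lay below its lowest cell. It varied least among cells, with an SD of 210 TPM around a mean of 348 TPM, yet it stayed above 26 TPM everywhere.

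*Stag3* (chr5:138280240-138312393, plus strand), the meiotic partner of the ring, was lower at the end but less evenly. Its means were 306, 185, 199, 199 and 150 TPM, a log2 ratio of -1.02, which fell short of 1.5-fold with the order from 2000 variable genes (-0.28) and on the spike-in scale (-0.55). The range in bin 1 was 16.9 to 653 TPM (median 297) and that in bin 5 was 3.96 to 825 TPM (median 103.4). The mean dropped between bins 1 and 2 and again between bins 4 and 5, and 2 cells of bin 5 were above every cell of bin 1, including the highest of all cells. *Stag3* is among the study's feature genes and was taken out of the order for this reason.

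*Hormad2* (chr11:4345814-4441105, minus strand) and *Trip13* (chr13:73911347-73937784, minus strand) both ended lower with wide overlap. The mean of *Hormad2* was 78 TPM in bin 1 (0 to 243, median 76.1) and 40 TPM in bin 5 (0 to 185, median 20.1), with its lowest mean, 22.4 TPM, in bin 4. Its log2 ratio was -0.95 (-1.72 when log2(TPM + 1) was averaged over cells first). On the spike-in scale the ratio was -0.37, short of 1.5-fold. The mean of *Trip13* was 73 TPM in bin 1 (0 to 194, median 62) and 26.5 TPM in bin 5 (0 to 90, median 19.2), a log2 ratio of -1.43. In bin 5, 7 of 28 cells exceeded the bin 1 median of *Hormad2* and 4 that of *Trip13*. *Trip13* was detected in 25 of 28 cells in bin 1 and in 27 of 28 in bin 5, and in 24 and 23 cells when each cell was thinned to 1000000 reads. *Hormad2* was detected in 22 and 17 cells.

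*Rec8* (chr14:55618037-55625395, plus strand), the meiotic kleisin that holds sister centromeres together to the end of meiosis, was at 0 in most cells. At least 10 reads were present in 6 cells, which held 99% of its reads, while 16 cells had up to 2 reads and all others had none. The 6 cells had 23.7, 21.9, 38.3 and 16.6 TPM (bin 1), 10.5 TPM (bin 2) and 1.66 TPM (bin 3). No cell of bins 4 and 5 was among them. In the 5 with over 10 TPM of *Rec8*, *Rad21l* stood at 56.8 to 127.6 TPM, above the mean of bin 1 (49 TPM). In the cell with 1.66 TPM of *Rec8*, *Rad21l* was at 0 TPM. Over all cells kept, Spearman's rho between *Rec8* and *Rad21l* was 0.0047. The mean of *Rec8* fell from 3.59 to 0.0117 TPM (log2 ratio -2.18 on the scale of TPM + 1), but it missed the limit of 1 TPM over all cells, so 9 of the 10 genes were among the genes tested. That ratio depended on the setting: it was -5.05 with a pseudocount of 0.1, -1.58 without the cells with stroma markers, -0.65 when logs were averaged over cells first and -0.0036, below 1.5-fold, between the groups by *Zp3* given below. None of the 14 libraries in near-identical pairs gave a *Rec8* read.

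*Rad21l* (chr2:151645404-151668533, minus strand), the other meiotic kleisin, known for early prophase, had a log2 ratio of -2.71, level with that of *Hormad1*, and -3.54 with the order from variable genes and -1.64 between the groups by *Zp3*. Its means were 49, 41.2, 28.9, 15.4 and 6.64 TPM. Cells of bin 1 ran from 0 to 140.8 TPM (median 44.5) and those of bin 5 from 0 to 33.3 TPM (median 0.0698). None of the latter reached the median of bin 1. The decline came both in level and in the number of cells: *Rad21l* was detected in 22 of 28 cells in bin 1 (78.6%, exact interval 59 to 91.7%) and in 12 of 28 in bin 5 (42.9%, 24.5 to 62.8%). When every cell was thinned to 1000000 reads, the counts were 22 and 12 as well.

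*Rad21* (chr15:51962240-51991747, minus strand), the kleisin of dividing cells and the meiotic genes' counterpart, ran the opposite way. Its means rose in every bin, at 8.19, 10.7, 15.5, 25.9 and 28.5 TPM, a log2 ratio of 1.68 (2.69 when logs were averaged over cells first). In bin 1 the cells lay between 0 and 54.3 TPM (median 1.05), and in bin 5 between 0.121 and 75.7 TPM (median 24.8). All but 1 of the 28 cells of bin 5 (27) exceeded the median of bin 1, against 14 of the cells of bin 1 itself. Detection went from 19 of 28 cells (67.9%, exact interval 47.6 to 84.1%) to 28 of 28 (100%, 87.7 to 100%), and from 17 to 27 cells after thinning. It was the single gene of the 10 with a higher mean in the last bin.

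*Smc1a* (chrX:152016428-152062694, plus strand) and *Smc3* (chr19:53600398-53645833, plus strand) had the smallest ratios of the 10 genes. The mean of *Smc1a* was 60 TPM in bin 1 (0 to 284, median 45.8) and 32.7 TPM in bin 5 (0 to 107.5, median 31), a log2 ratio of -0.86. This fell short of 1.5-fold on the spike-in scale (-0.22) and between the groups by *Zp3* given below (-0.47). *Smc3*, which pairs with either SMC1, had 49.4 TPM in bin 1 (0.0996 to 162, median 38.7) and 30.8 TPM in bin 5 (10.8 to 86.1, median 24.8), a log2 ratio of -0.67. For both, 7 of 28 cells of bin 5 exceeded the bin 1 median. The call for *Smc3* rested on single cells of bin 1, since its ratio was -0.54 without cell S26 (162 TPM) and -0.55 without cell S106 (156 TPM). It was also lost on the spike-in scale (-0.05), on CPM (-0.57) and when logs were averaged over cells first (-0.24).

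**Figure D2:**
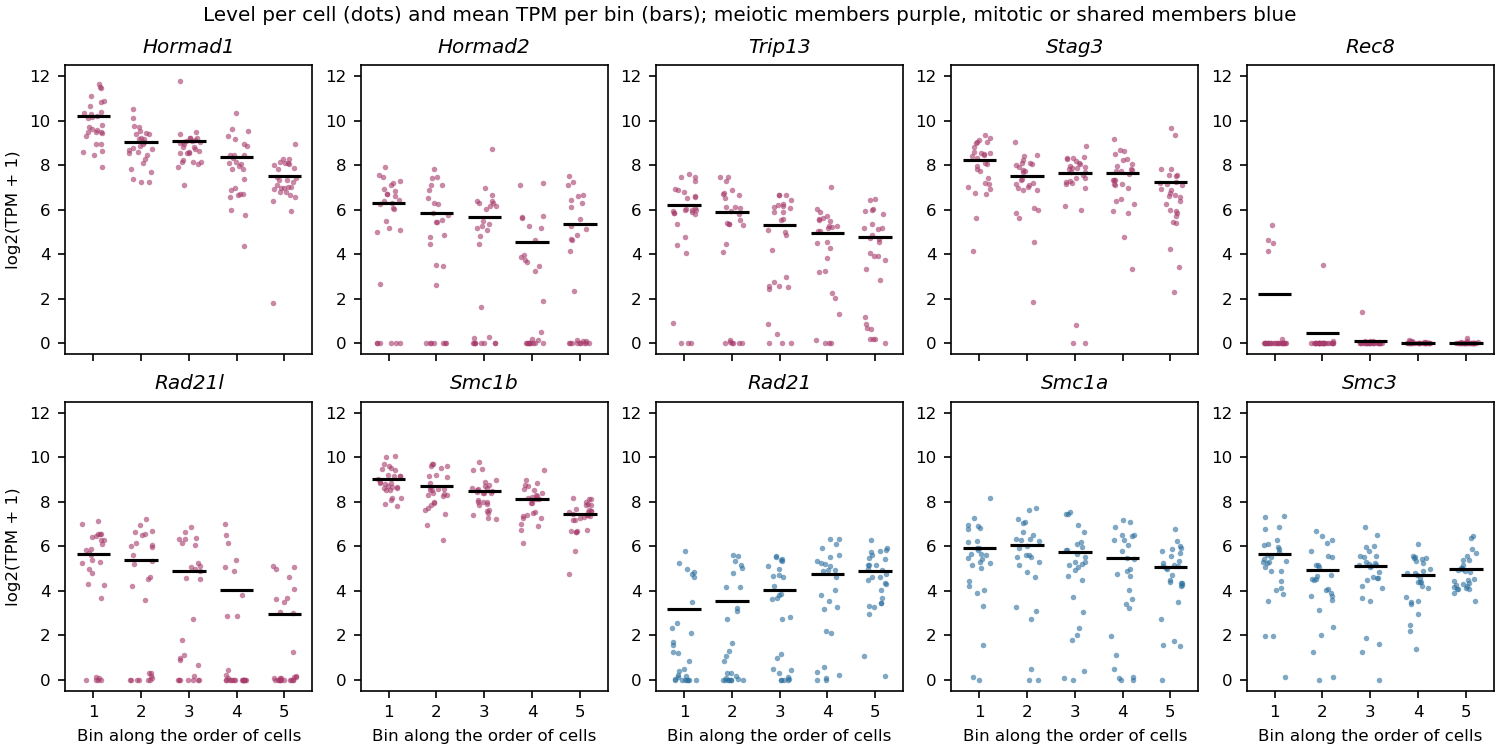
Level of each of the 10 genes in each cell kept (dots, log2 of TPM + 1) in 5 bins along the order of cells, with bars at the mean TPM of each bin. *Hormad1* and *Smc1b* drift downward as whole clouds, *Rad21l* loses cells to the line at 0 (22 to 12 of 28 detected), *Rad21* gains them (19 to 28), and *Rec8* appears in few cells.

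All 7 meiotic genes were thus lower by at least 1.5-fold in bin 5 than in bin 1, 6 of them among the genes tested, and their median log2 ratio was -1.59. Of 11756 coding genes tested, 36.8% were lower by that much and 24.7% were higher, with a median of -0.23. Of the 3 other genes, 2 were lower and *Rad21* was higher. Scaling each cell to its spike-in RNA moved the median of all genes to 0.51 and the shares to 17.2% lower and 47.1% higher. On that scale 5 of the 7 meiotic genes were lower by 1.5-fold, with *Rec8* at -2.50, *Hormad1* at -2.08, *Rad21l* at -1.71, *Smc1b* at -0.77 and *Trip13* at -0.68. *Stag3* (-0.55), *Hormad2* (-0.37), *Smc1a* (-0.22) and *Smc3* (-0.05) did not pass 1.5-fold there, and *Rad21* stood at 2.57. Taken relative to the median of all genes, all 7 meiotic genes were lower by 1.5-fold on that scale, but 5 were with the order from variable genes and 6 with the order from maternal genes, with 3 bins and between the groups by *Zp3*. No gene of the 10 changed its direction in any of 16 alternatives. The alternative without the filter on low genes changed only the background genes, so it could not move the ratios of the 10 genes. *Rad21* was called higher and *Hormad1*, *Trip13*, *Rad21l* and *Smc1b* lower in all 16, against 14 for *Stag3* and *Smc1a* and 13 for *Smc3*. *Stag3* was the meiotic gene that did not pass with the order from variable genes, and *Rec8* the one between the groups by *Zp3*.

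**Figure D3:**
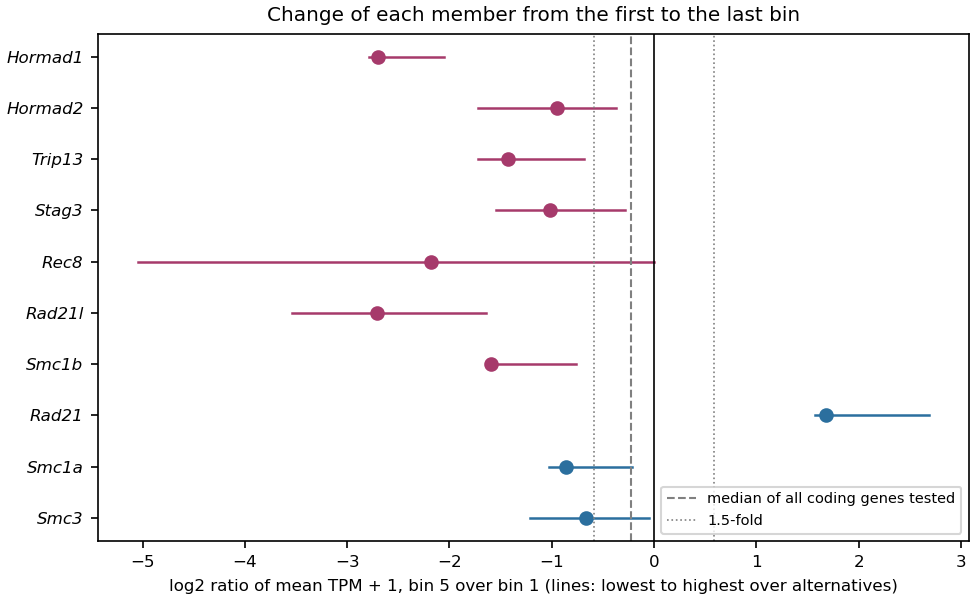
Log2 ratio of mean TPM + 1, bin 5 over bin 1, for each gene (dots), with lines from the lowest to the highest value over 16 alternatives and with each cell left out. The 7 meiotic genes lie left of 0 and *Rad21* alone lies right of it, from 1.57 to 2.69. The line of *Rec8* runs from -5.05 to nearly 0.

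Set against their paralogues, the meiotic subunits differed from each other. *Smc1b* exceeded *Smc1a* by a log2 ratio of 2.75 over all cells and in 94.2% of cells, and by 3.47 when logs were averaged over cells first and 3.69 in reads per kilobase of the longest coding transcript. *Stag3* exceeded the sum of *Stag1* and *Stag2*, the somatic STAG genes, by 1.93 and in 86.2% of cells. The meiotic form made up 87.3% of the summed mean of the SMC1 pair and 79.4% of the STAG set. *Rec8* was far below *Rad21*, at a log2 ratio of -3.36 (-4.27 with a pseudocount of 0.1, -2.76 with averaged logs) and 4.44% of their summed mean. *Rad21l* exceeded *Rad21* by 0.64, a ratio of means that became -0.041 when log2(TPM + 1) was averaged over cells first, and *Rad21l* was the higher in 55 cells and *Rad21* in 73.

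Along the order the ratio moved most for the kleisins, less for the SMC1 pair and least for the STAG set. The share of *Smc1b* was 89.7% in bin 1 and 84% in bin 5, with a log2 ratio of 3.10 and 2.36, and the share of *Stag3* was 78.1 and 78.9%. *Stag1* (63.2 to 33.2 TPM, log2 ratio -0.91) and *Stag2* (22.6 to 6.99 TPM, -1.56) were lower at the end along with *Stag3*. The share of *Rad21l* in the sum with *Rad21* was 85.7, 79.4, 65.1, 37.3 and 18.9% in the successive bins. The log2 ratio of *Rad21l* over *Rad21* went from 2.45 to -1.95, a change of -4.40 (-5.69 to -3.34 over the alternatives), against -0.74 for *Smc1b* over *Smc1a*, which passes 1.5-fold here but not in 4 of the alternatives (-0.56 to -0.52), and 0.056 for *Stag3*, which ran from -0.42 to 0.55 over the alternatives. The share of *Rec8* beside *Rad21* went from 30.5 to 0.0410%, on the few cells given above.

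**Figure D4:**
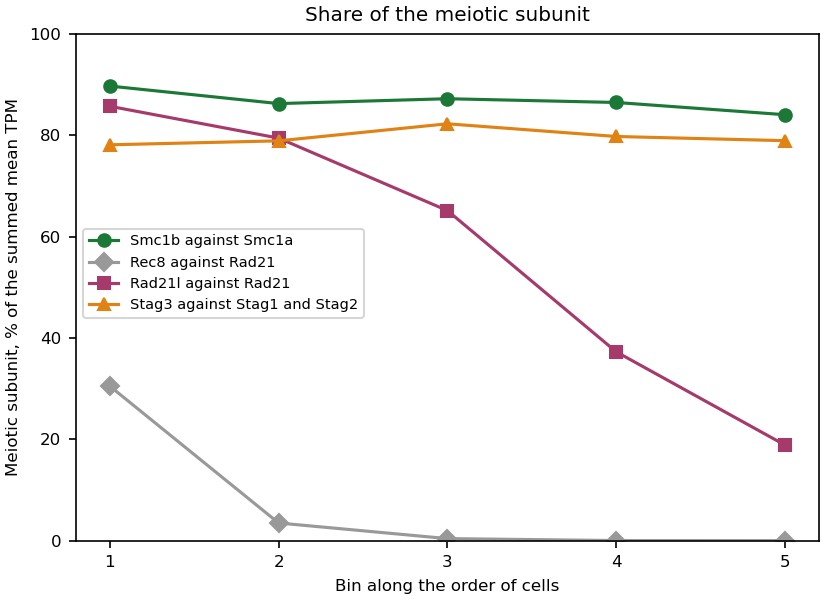
Share of the meiotic subunit in the summed mean TPM of each paralogue set, in % (vertical axis), in the 5 bins along the order of cells. The lines of *Smc1b* and *Stag3* stay between 78.1 and 89.7%, whereas that of *Rad21l* goes from 85.7 to 18.9%.

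The kleisins also differed cell by cell. With 1 TPM as the limit, 25 cells had *Rad21l* without *Rad21*, 43 had *Rad21* without *Rad21l*, 51 had both and 19 had neither. In bin 1, 12 of 28 cells had *Rad21l* alone, 4 had *Rad21* alone and 10 had both. In bin 5 the counts were 0, 16 and 11. Cells with both were thus about as many in every bin (8 to 11), and those with *Rad21l* alone became fewer as those with *Rad21* alone became more. *Rad21l* was the higher of both in 21, 15, 12, 5 and 2 cells of the successive bins. Spearman's rho between them over all cells was -0.14, and within the bins it ran from -0.09 to 0.27, with values on both sides of 0.

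**Figure D5:**
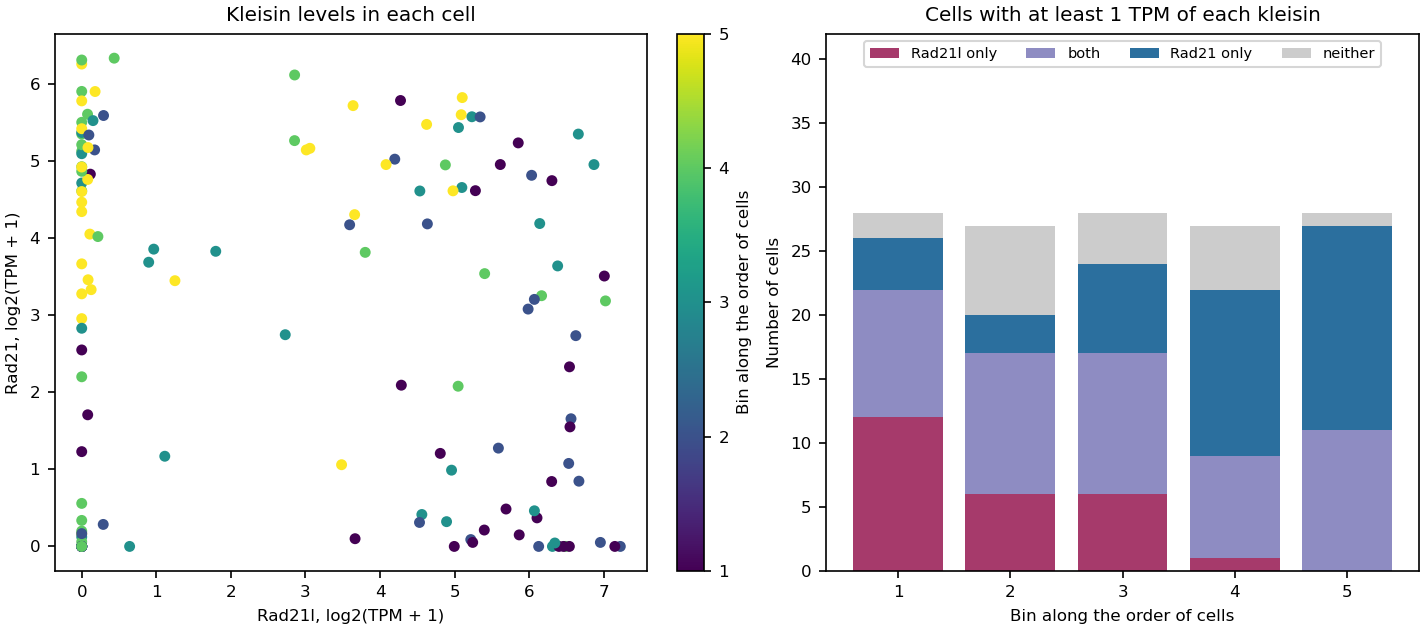
Left, log2(TPM + 1) of *Rad21l* (horizontal) and *Rad21* (vertical) in each cell kept, coloured by bin. Right, number of cells per bin with at least 1 TPM of *Rad21l* only, both, *Rad21* only or neither: cells with *Rad21l* only go from 12 to 0 and cells with *Rad21* only from 4 to 16.

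A grouping by marker genes in place of the order gave the same directions for the kleisin pair. Both markers, *Zp3* and *Sohlh1*, are among the genes that set the order, so the grouping is not independent of it. In 11 cells with both *Zp3* and *Sohlh1* below 10 TPM, *Rad21l* averaged 39 TPM (median 30.9, highest 140.8) and *Rad21* 8.85 TPM (median 0.109, highest 54.3). In 80 cells with *Sohlh1* but not *Zp3* the means were 36.4 and 11.2 TPM. In 47 cells with *Zp3* they were 11.8 TPM (median 0.0599, highest 115.8) and 31 TPM (median 29.5, highest 79.9). *Rec8* reached 38.3 TPM in the middle group and no more than 0.193 TPM in the others, so that none of the 6 cells with at least 10 reads was among these 11 or 47.

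Among the 45 pairs of the 10 genes, few varied together across cells. The highest Spearman's rho was 0.65, between *Hormad1* and *Smc1b*, and it was above 0 within each of the 5 bins (0.16 to 0.56). *Smc1b* with *Rad21l* (0.37), *Hormad1* with *Hormad2* (0.37), *Hormad2* with *Smc1b* (0.34) and *Hormad1* with *Stag3* (0.33) were the other pairs above 0.3. Below -0.3 were *Smc1b* with *Rad21* (-0.40) and *Hormad1* with *Rad21* (-0.35). Within the bins these lay on both sides of 0, from -0.45 to 0.22 and from -0.17 to 0.17. Of the pairs, 32 lay between -0.2 and 0.2, among them *Smc1b* with *Smc1a* (0.0032) and with its obligate partner *Smc3* (-0.04). All values of a cell share its library and depth, and rho is given as a description.

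Over 7449 coding genes with a mean of at least 10 TPM, the patterns most like *Hormad1* across the cells kept were those of *Tex101* (rho 0.73), *Taf7l* (0.68), which is 1 of the genes that set the order, and *Maoa* (0.67). For *Smc1b* they were *Hspa5* (0.69), *Stk31* (0.67) and *Atp5f1* (0.67), and for *Stag3* they were *Six6os1* (0.46), *Ddx5* (0.43) and *Pogk* (0.40). *Rad21* was nearest to *R3hdm2* (0.54), *Ybx3* (0.53) and *Tfap4* (0.52), which were all higher in the last bin (log2 ratios 2.22, 2.33 and 2.42). *Smc3* was nearest to *Pbk* (0.37), *Ppig* (0.36) and *Coq3* (0.35). For *Rec8* no rho exceeded 0.29 (*Mia2*), which in counts this sparse is no likeness.

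Of 14 genes that load, protect or release cohesin, 7 were lower and 2 higher by 1.5-fold in the last bin (median log2 ratio -0.65, against -0.23 for all genes and calls of 36.8 and 24.7%). In a list this short these counts lie near the background, and the difference was not tested. Both parts of the loader were lower, *Nipbl* from a mean of 27.5 to 12.2 TPM (-1.11) and *Mau2* from 43.1 to 11 TPM (-1.87). So were *Wapl*, which opens the ring (114.2 to 52 TPM, -1.12), and *Esco2*, which acetylates SMC3 (80.7 to 45.7 TPM, -0.81). The shugoshins, which shield centromeric cohesin, were lower as well, *Sgol1* from 35.8 to 16.8 TPM (-1.05) and *Sgol2a* from 36.9 to 5.59 TPM (-2.52). *Meikin*, a meiotic kinetochore gene with a mean of 8.40 TPM over all cells (-3.38), completes the lower genes. With *Stag1* and *Stag2*, which the list also held, the counts were 9 and 2 of 16. The higher ones were *Cdca5* (sororin, which counters WAPL), from 14 to 41.3 TPM (1.5), and *Pttg1* (securin, the inhibitor of separase), from 146 to 588 TPM (2.00). Separase itself, *Espl1*, was at 67.6 and 59.9 TPM (-0.17).

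Of 11 axis partners and other HORMA domain genes, 5 were lower and 2 higher (median -0.51), beside 36.8 and 24.7% of all coding genes tested, so these counts lie near the background. The axis protein gene *Sycp2* went from 385 to 67.4 TPM (-2.50), while its partner *Sycp3* was at 2444 and 1841 TPM (-0.41) and did not pass 1.5-fold. *Ankrd31*, which acts with the break machinery on the axis, went from 58.9 to 8.14 TPM (-2.71), and *Ccdc36* (IHO1), which binds HORMAD1, was lower too (-2.36) with a mean of 6.03 TPM over all cells. *Rec114*, which works with *Mei4* in break formation, was higher, from 49.7 to 98.1 TPM (0.97), as was *Mei4* (0.95) at a mean of 2.45 TPM. *Mad2l1bp*, the adaptor through which TRIP13 meets its substrates, was lower (20.9 to 11.8 TPM, -0.78), whereas *Mad2l1* was at 100.3 and 92.2 TPM (-0.12). *Atg13*, a HORMA domain gene of autophagy, was lower (45.7 to 14.1 TPM, -1.63).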

How the data were processed

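Single-cell Smart-seq2 libraries of 146 cells from P0.5 C57/BL6J ovaries were used, 1 table per cell. The authors checked reads with FastQC and quantified them with Salmon against mm10 with spike-in sequences added. The deposited values are TPM, which sum to 1000000 per cell with spike-ins and mitochondrial genes included, and estimated counts per gene symbol without normalization. *Gm25197* (same strand), *Gm10923* and *Gm15267* (opposite strands, in a kit that does not mark strand) overlap *Trip13*, *Smc1b* and *Smc1a* by 126, 418 and 464 bases. *Stag1* overlaps 5 annotated genes (up to 3961 bases) and *Stag2* overlaps *Gm37564* (865 bases). These overlaps are of whole gene spans, introns included. Whether they fall in exons, where reads could not be told apart, was not examined.

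The 10 genes and the gene lists were chosen with earlier results of these data known. Cells with *Ddx4* of at least 1 TPM were kept, and pairs of libraries with r above 0.95 were averaged. Cells were ordered by the first principal component (37.7% of the variance) of 18 genes (*Taf4b* and 17 of the 20 feature genes that the study clustered on, those it names other than *Stag3* and *Sycp2*) after log normalization to 10000 per cell and scaling, in NumPy 2.4.6 and pandas 2.3.3; the study's own trajectory was not used. Ratios used TPM + 1, and coding genes (19779 by GENCODE M21 and RefSeq) were tested where their mean was at least 1 TPM. Named genes were the 10 genes, *Stag1*, *Stag2*, the 3 most alike genes for 6 of them (for *Rec8* not all are reported here), and list genes past 1.5-fold with a mean of at least 10 TPM; *Espl1*, *Sycp3*, *Mad2l1*, *Meikin*, *Ccdc36* and *Mei4* were named after their values were seen. The ratio was tested on simulated counts of 11756 genes in 54 cells, 200 of these genes changed: 99.5% had the right sign. The median absolute error was 0.26 in log2, beside a calling limit of 0.58. How often an unchanged gene passed this limit was not tested. Whether the sign rate holds for genes as often at 0 as *Rec8* (116 of 138 cells) or *Rad21l* (43 cells) was not tested. Exact intervals came from SciPy 1.17.1.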

Additional observations from a re-analysis of the deposited data

Results flagged for a closer look

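The library without *Ddx4*, which entered no comparison, still held reads of 5 of the 10 genes above the limit of 3 reads that a count of 0 allows. *Hormad1* stood at 33.6 TPM (65 reads), *Smc1b* at 22.4 TPM, *Rad21* at 8.22 TPM (49 reads), *Stag3* at 8.01 TPM (3.89 estimated reads) and *Smc3* at 2.42 TPM (7 reads). The library had 1408459 reads on genes, fewer than any cell kept, with summed markers of 0.361 TPM for germ cells, 95.2 TPM for pregranulosa cells and 234.8 TPM for stroma. The part of other cells in these reads was not tested.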

How the results depend on the processing

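No paired analysis was possible because there is 1 group and no cell shares a number with another. Of 344 recomputed values, 312 moved by less than 1.5-fold, 31 moved by more and 1 value past 1.5-fold turned its direction. The change of *Stag3* over *Stag1* and *Stag2*, 0.056 and never past 1.5-fold, was -0.24 when logs were averaged, -0.42 on CPM, -0.22 with *Sycp2* in the order, -0.19 with the order from 12 maternal genes and -0.09 without *Taf4b*, but 0.41 with the order from 2000 variable genes and 0.55 between the *Zp3* groups. That of *Smc1b* over *Smc1a* (-0.74) fell short of 1.5-fold on the spike-in scale (-0.55), on CPM (-0.52), in cells past the quality limits (-0.54) and without cells with stroma markers (-0.56). *Rad21l* over *Rad21* across all cells was -0.041 when log2(TPM + 1) was averaged over cells first, and this way the change of that ratio was -5.69, *Smc1b* over *Smc1a* was 3.47 and *Rec8* over *Rad21* was -2.76. The change of *Rad21l* over *Rad21* was -5.15 with the order taken from 2000 variable genes and -3.34 between cells with *Zp3* and cells with neither *Zp3* nor *Sohlh1*. That of *Rec8* over *Rad21* (-3.87) was -6.84 with a pseudocount of 0.1 (level -4.27), -5.07 on the spike-in scale, -4.88 on CPM, -3.28 with variable genes and -1.70 between the *Zp3* groups. *Smc1b* over *Smc1a* was 3.69 in reads per kilobase of the longest coding transcript, an alternative added after the data were seen. The causes were not tested. With each cell left out in turn, all 7 meiotic genes stayed lower by 1.5-fold, the changes ran from -4.72 to -4.25 for *Rad21l* over *Rad21*, -4.20 to -3.57 for *Rec8* over *Rad21*, -0.97 to -0.59 for *Smc1b* over *Smc1a* and -0.12 to 0.16 for *Stag3*, and the levels from 0.59 to 0.69, -3.58 to -3.32, 2.73 to 2.80 and 1.91 to 1.98. Counting each library as a cell, leaving out cells rich in blood or in stroma markers, or leaving *Taf4b* out of the order (all added later) kept 7 meiotic genes lower, with changes of *Rad21l* over *Rad21* of -4.62, -4.44, -4.68 and -4.25. The meiotic count was 6 of 7 with the order of variable genes, where *Stag3* was at -0.28, and between the *Zp3* groups, where *Rec8* was at -0.0036. The data hold 1 litter, so no value here carries an error between animals.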

Other observations

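The deposited table allows a look at which transcripts carry each gene, since reads divided by TPM give the length over which a gene's reads were spread in a cell. In cells with at least 10 reads, this length was near that of the longest coding transcript for *Smc1b* (median 3990 of 4047 bases), *Rad21* (3837 of 3956), *Smc3* (4778 of 4851) and *Rad21l* (1557 of 1659). It reached 75% of the longest transcript in every such cell for *Smc1b*, for *Rad21l* and for *Hormad1* (median 1226 of 1511 bases). *Stag3* stood apart, with a median of 1861 of 4211 bases and 8.15% of cells at 75% or more, and so did *Trip13* (1688 of 3399 bases, 8.93% of cells). For *Stag3* the median was 2076 bases in bin 1 and 1479 bases in bin 5. *Stag1*, with which *Stag3* was compared, was at 1850 of 6186 bases (4.07% of cells), and *Smc1a* at 2873 of 4691 bases. *Stag2* and *Hormad2* reached 75% in 44.9 and 44.4% of cells. The TPM of these genes therefore count short annotated transcripts along with full ones, and their protein-coding share was not measured.

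The length column of the deposited tables was lower than the length found from reads and TPM, by a median factor of 1.00 for genes with 1 annotated transcript, 2.00 for 2, 3.81 for 5 and 4.31 for 6, and it was not used.

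In the grouping by markers, *Smc3* averaged 64.6 TPM in the 11 cells below 10 TPM of both *Zp3* and *Sohlh1*, 33.5 TPM in the 80 cells with *Sohlh1* alone and 27.2 TPM in the 47 cells with *Zp3*. *Trip13* averaged 96.6, 48.4 and 28.5 TPM in the same groups, and *Stag2* 28.1, 10.4 and 6.14 TPM. *Hormad1* in the 11 cells averaged 1578 TPM, and its lowest value there, 696 TPM, was close to the highest in the cells with *Zp3*, 748 TPM.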
